A study of Canis lupus familiaris with 2 samples.

Results

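The HOX cluster genes described here are the 35 features of the deposited expression tables whose symbol is HOX followed by the cluster letter A, B, C or D and a number, out of 23510 features listed. They comprise 11 HOXA, 10 HOXB, 7 HOXC and 7 HOXD genes. The cells are MDCK, an established epithelial line from dog kidney, and no genetic change is named by the labels. One culture was grown in 2-cm-high medium and labelled 2 cmH2O, and the other was grown in 50-cm-high medium and labelled 50 cmH2O, so that the column of medium loaded static water pressure on the cells. Both were cultured on inserts for 3 days, and the 2-cm-high-medium culture, described by the labels as without pressure, was the control. Each group had 1 culture, so no value below has a replicate error, no difference could be tested, and ratios compare these cultures only. Where a pair of values is given, the 2-cm-high-medium culture stands first. The comparison asks which positional HOX code MDCK cells carry and whether it differed under the higher medium.

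HOX genes encode homeodomain transcription factors that give cells their position along the body axis. They lie in clusters that arose by duplication, so that genes with the same number in different clusters, the paralogs, are relatives. Low-numbered genes sit at one end of each cluster and are active towards the head, high-numbered genes sit at the other end and are active towards the tail, and cells of adult organs often keep the code of the axial level from which the organ arose. In the developing kidney, the HOX11 paralogs act in the mesenchyme that induces the ureteric bud, and the HOXB7 promoter is widely used to drive transgenes in the ureteric bud and collecting duct. In the following, paralog groups 1 to 3 are called anterior, 4 to 8 central and 9 to 13 posterior.

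The level of each gene is given as FPKM, a count of sequenced fragments divided by exon length and by library size, so that levels can be compared between genes. Of 11 markers of kidney tubule and ureteric bud epithelium, 8 were above 1 FPKM in both cultures. Among these, keratin 8 (KRT8) had 1641 FPKM at 2 cm and 1561 FPKM at 50 cm, and the renal lineage factors PAX2 and PAX8 had 28.3 and 65.1 FPKM at 2 cm and 27.9 and 57.6 FPKM at 50 cm. EMX2, a ureteric bud factor, was listed at 0 in both cultures. Of the same list, CDH16 had 1.96 FPKM at 2 cm and 0.676 FPKM at 50 cm, a ratio of 0.345. LHX1 had 0.819 and 1.05 FPKM. None of the 5 stromal, 4 endothelial and 3 leukocyte markers analysed exceeded 1 FPKM in either culture. Their summed levels went from 0.296 to 0.329 FPKM for stroma, from 0.458 to 0.268 FPKM for endothelium and from 0.0734 to 0.0201 FPKM for leukocytes. Of these markers, COL3A1, DCN, PECAM1, TEK, PTPRC and CD3E were listed at 0 in both cultures. The highest of the others were KDR, with 0.277 and 0.228 FPKM, and PDGFRA, with 0.202 and 0.247 FPKM.

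Of the 35 HOX genes, 30 had a level above 0 in at least one culture and 23 (65.7%) were above 1 FPKM in both, beside 47.0% of all listed features. The 23 genes were 9 of 11 HOXA, 7 of 10 HOXB, 3 of 7 HOXC and 4 of 7 HOXD genes. By axial group they were 6 of 8 anterior, 11 of 14 central and 6 of 13 posterior genes. The 5 genes listed at 0 in both cultures were HOXB1, HOXC11, HOXC12, HOXD1 and HOXD12, which belong to groups 1, 11 and 12. HOXC9, HOXD10 and HOXD13 were not analysed here. HOXC8 is listed under a provisional symbol and was found by its gene identifier (607625). Its level, 5.88 FPKM in both cultures, is not counted among the 35 members.

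**Figure D1:**
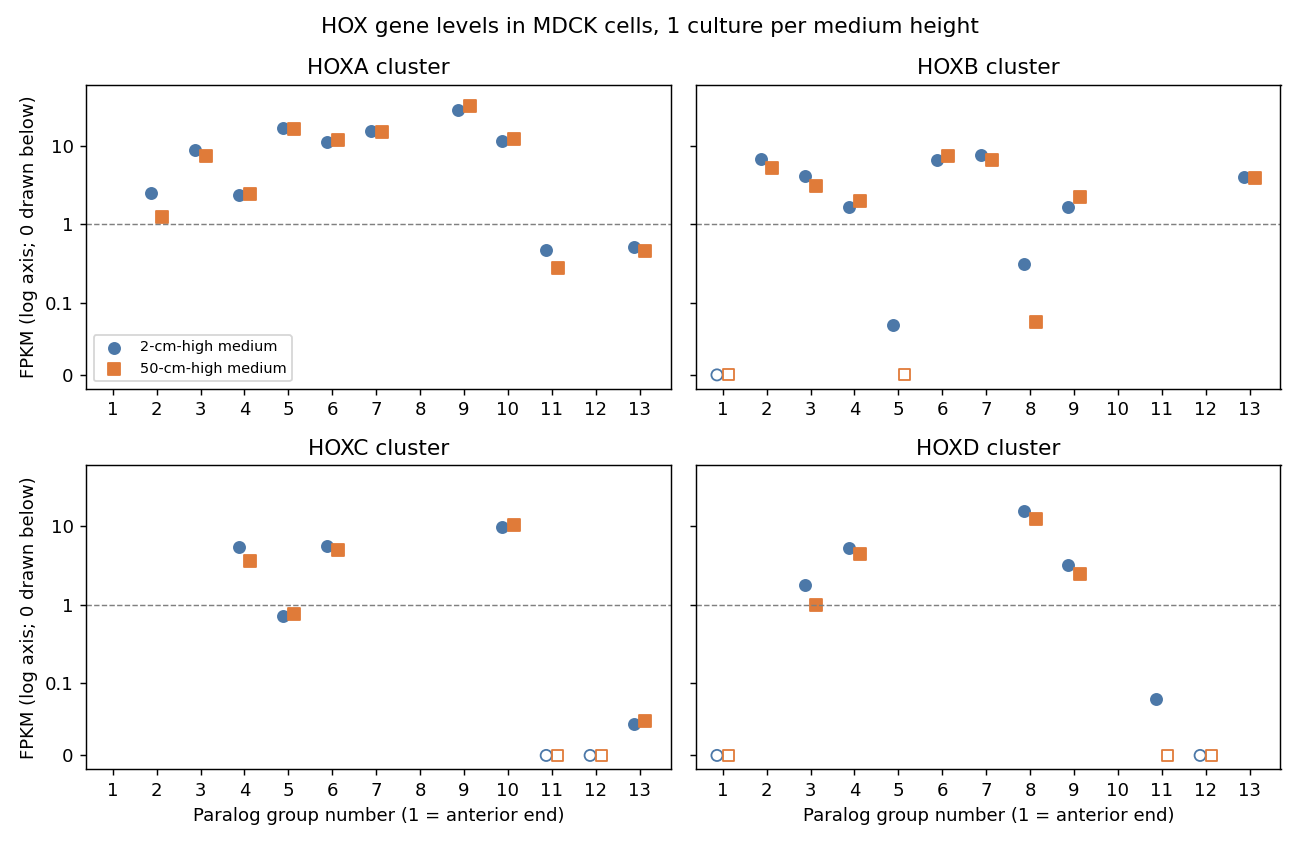
FPKM of 34 of the 35 listed HOX genes (log axis, with 0 drawn below it as open symbols) against the paralog group number, 1 panel per cluster, for the 2-cm-high-medium culture (circles) and the 50-cm-high-medium culture (squares), with a dashed line at 1 FPKM. HOXA9 was the highest gene in both cultures, at 29.0 and 32.7 FPKM. The listed group 11 and 12 genes, none of which is a HOXB gene, lay below 1 FPKM or at 0.

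The HOXA cluster had the highest summed level. Its genes made up 55.8% of the summed HOX FPKM at 2 cm and 58.9% at 50 cm. The corresponding shares were 18.0% and 17.6% for HOXB, 11.9% and 11.6% for HOXC, and 14.4% and 11.9% for HOXD. These shares depend on how many genes of each cluster were listed. Summed over all 35 genes, the level was 182 FPKM at 2 cm and 172 FPKM at 50 cm, which is 0.0303% and 0.0281% of the summed FPKM of all features. The HOXA sum was 101.5 FPKM in both cultures, whereas the HOXD sum went from 26.1 to 20.5 FPKM, a ratio of 0.785. HOXB and HOXC lay between these, with ratios of the sums of 0.928 and 0.926. In bulk RNA, fewer cells that express a gene and less of its RNA per cell cannot be told apart.

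**Figure D2:**
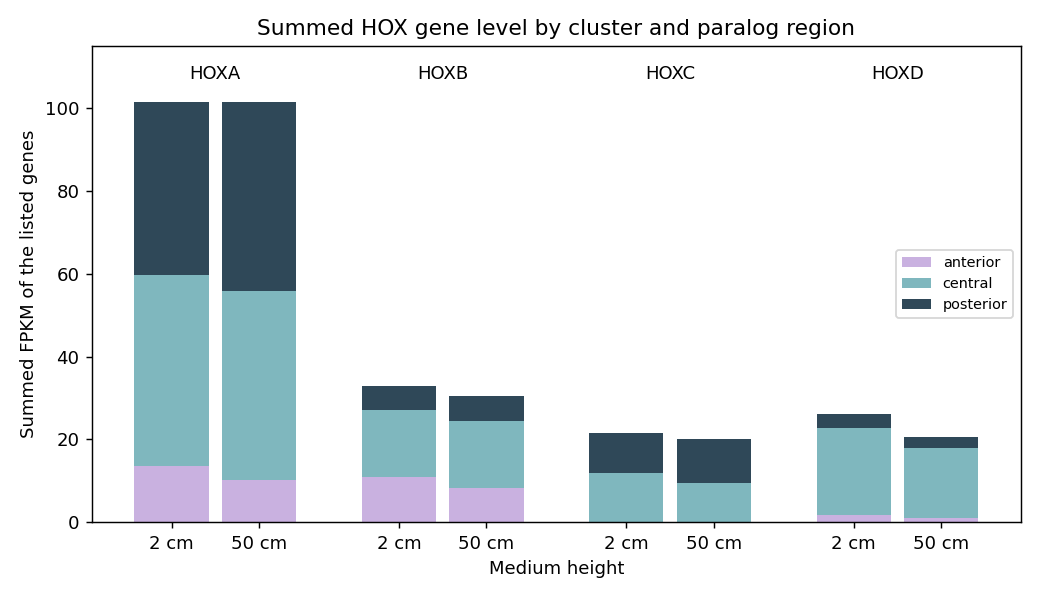
Summed FPKM of the listed genes of each cluster in 2-cm-high and 50-cm-high medium (1 culture each), stacked by anterior (groups 1 to 3), central (4 to 8) and posterior (9 to 13) genes. The HOXA bars are of equal height, at 101.5 FPKM, while their anterior part is smaller and their posterior part larger in 50-cm-high medium.

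The highest members were central and posterior HOXA genes together with HOXD8. HOXA9, a gene known for its role in blood progenitors and leukaemia, had 29.0 FPKM at 2 cm and 32.7 FPKM at 50 cm. This placed it at the percentile 85.3 and 86.2 of all listed features. HOXA5, which is required for lung and airway development, followed with 17.0 and 16.3 FPKM, and the central gene HOXD8 had 15.8 and 12.6 FPKM. HOXA7 had 15.6 and 15.0 FPKM, and HOXA6 had 11.2 and 11.9 FPKM. HOXA10, a gene of the female reproductive tract, had 11.7 and 12.3 FPKM, and its paralog HOXC10 had 9.71 and 10.5 FPKM. The order of these genes cannot be set against replicate spread, but the gap from HOXA9 to HOXA5 was wider in both cultures than any gap between neighbours among the rest of them.

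The cells carried no group 11 or 12 code at levels above 1 FPKM. HOXA11 had 0.464 FPKM at 2 cm and 0.274 FPKM at 50 cm, HOXD11 had 0.0636 FPKM at 2 cm and was listed at 0 at 50 cm, and HOXC11 was listed at 0 in both. Summed over the 3 paralogs, group 11 went from 0.527 to 0.274 FPKM, whereas group 10 with 2 listed genes stood at 21.4 and 22.7 FPKM. The step from group 10 to group 11 was thus steep in both cultures, although HOXD10 was not analysed here. HOXB13 was the exception among the last groups. This gene, known as a prostate and hindgut factor, had 4.02 and 3.84 FPKM, while HOXA13 had 0.511 and 0.459 FPKM and HOXC13 had 0.0303 and 0.0333 FPKM.

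Between the cultures, the levels of the HOX genes ran close together. Across the 23 genes above 1 FPKM in both, Pearson's r between both sets of log2 FPKM values was 0.967, beside 0.986 across all 11057 such features. These are descriptions across genes, which are not independent replicates. A feature was called changed when it was above 1 FPKM in both cultures and its ratio of 50-cm-high to 2-cm-high medium was above 2 or below 0.5. By this rule 1 of the 23 HOX genes changed (4.35%), beside 1.67% of all features. With a minimum of 0.1 FPKM it was 1 of 26 HOX genes (3.85%), beside 5.50% of 13280 features, and with any value above 0 it was 2 of 28 (7.14%), beside 8.50%, so the order of the shares depends on the minimum. The gene above 1 FPKM was HOXA2, which was lower, and 1.28% of all features were lower by more than 2-fold. None of the HOX genes was higher by more than 2-fold, beside 43 of the 11057 features (0.389%).

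HOXA2, which patterns the hindbrain and the middle ear, fell from 2.53 FPKM in 2-cm-high medium to 1.23 FPKM in 50-cm-high medium, a ratio of 0.486 and a log2 ratio of −1.04. Among the 500 features nearest in level, the log2 ratio ran from −1.04 at the percentile 5 to 0.58 at the percentile 95, so the HOXA2 ratio lay at the lower edge of this range. None of the 23 HOX genes lay outside the corresponding range of its own neighbours in level. The size of the HOXA2 difference is therefore one that other features of the same level also showed. Its call also depended on the pseudocount and the scaling, although its direction did not. The log2 ratio was −0.98 with a pseudocount of 0.1, −0.66 with a pseudocount of 1 and −0.84 after quantile normalization, each short of 2-fold, and a minimum of 5 FPKM left the gene out.

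**Figure D3:**
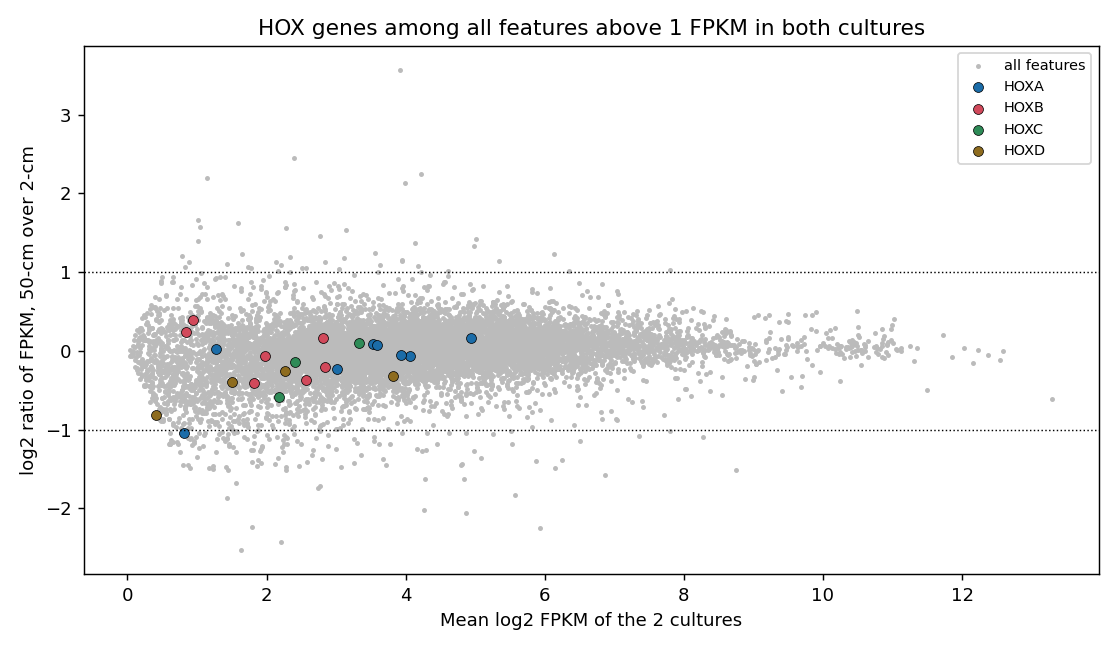
Log2 ratio of FPKM (50-cm-high over 2-cm-high medium) against the mean log2 FPKM of the cultures for the 11057 features above 1 FPKM in both (grey) and 22 of the 23 HOX genes, coloured by cluster, with dotted lines at 2-fold. Of the HOX genes, only HOXA2 lies past a dotted line, at −1.04, and the HOX genes sit within the spread of features of their level, which is wider at low levels.

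More HOX genes were lower than higher in 50-cm-high medium. The ratio was below 1 for 15 of the 23 genes (65.2%), beside 47.4% of all features, and below 0.8 for 8 of them (34.8%), beside 13.3%. A ratio above 1.25 was found for 1 HOX gene, HOXB9 (4.35%), beside 10.5% of all features. The median log2 ratio of the 23 genes was −0.14 (SD across genes 0.35), beside 0.01 for all features. It was −0.06 over the 12 genes above 5 FPKM, of which 58.3% were lower, and −0.08 after quantile normalization. These counts are no test, because overlapping HOX genes may share reads and genes are not replicates. Features of low level had lower median ratios, with a median log2 ratio of −0.21 among the 500 features nearest to HOXA2 and of 0.08 among those nearest to HOXA9. Set against the median of their own neighbours in level, 14 of the 23 genes were lower. Such a median splits its features evenly, so an even split is the reference for this count, and the excess was not tested.

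The lower ratios gathered at the anterior end. All 6 anterior genes above 1 FPKM had lower levels in 50-cm-high medium, and their summed level went from 26.2 to 19.5 FPKM, a ratio of 0.744. Their median log2 ratio was −0.52, with a range from −1.04 to −0.23, and all 6 were also below the median of the features nearest in level. The 11 central genes above 1 FPKM had a median log2 ratio of −0.06, with 7 lower and 4 higher, and all 14 listed central genes summed to 95.3 and 88.3 FPKM. The 6 posterior genes above 1 FPKM had a median log2 ratio of 0.09, with 2 lower and 4 higher, and all 13 listed posterior genes summed to 60.5 and 64.7 FPKM. In shares of the summed HOX FPKM, anterior genes went from 14.4% to 11.3% and posterior genes from 33.2% to 37.5%. The grouping into anterior, central and posterior genes was drawn up with earlier results of these data known, and anterior genes other than HOXA2 stayed within 2-fold.

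**Figure D4:**
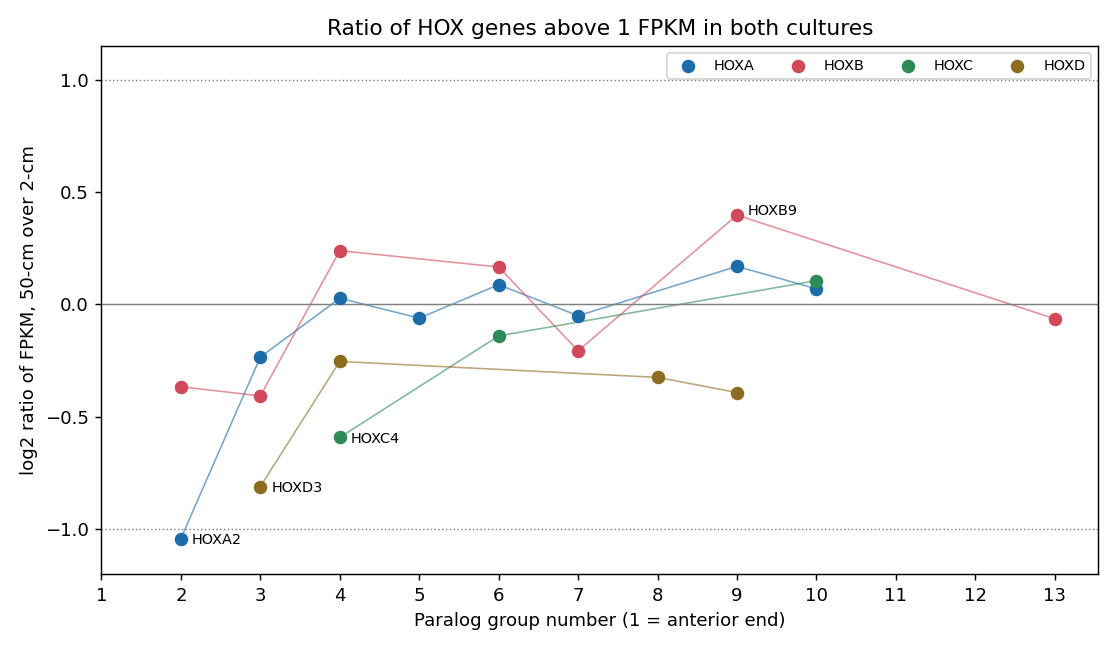
Log2 ratio of FPKM (50-cm-high over 2-cm-high medium) against paralog group number for 22 of the 23 HOX genes above 1 FPKM in both cultures, with genes of one cluster joined by a line and dotted lines at 2-fold. All 5 genes drawn of groups 1 to 3 lie below 0, from −1.04 for HOXA2 to −0.23 for HOXA3, whereas 4 of the 6 genes of groups 9 to 13 lie above 0.

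Each anterior gene was lower, but by different amounts. HOXB2, the HOXA2 paralog and likewise a hindbrain gene, had 6.74 FPKM at 2 cm and 5.23 FPKM at 50 cm, a ratio of 0.776. Group 2 as a whole thus went from 9.27 to 6.46 FPKM. Among the group 3 paralogs, HOXA3, required for thymus and parathyroid development, had 8.78 and 7.46 FPKM, a ratio of 0.850. HOXB3 had 4.08 and 3.08 FPKM, a ratio of 0.754. HOXD3 had 1.77 and 1.01 FPKM, a ratio of 0.570, the lowest of the HOXD genes above 1 FPKM in both cultures, and its level in 50-cm-high medium stood just above the 1 FPKM minimum. In the HOXA, HOXB and HOXD clusters, the lowest ratio among genes above 1 FPKM belonged to an anterior gene, and in HOXC, where no anterior gene was listed, it belonged to HOXC4.

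The central genes differed in direction. Among the group 4 paralogs, HOXC4 had 5.54 and 3.68 FPKM, a ratio of 0.664, and HOXD4 had 5.26 and 4.41 FPKM, a ratio of 0.839. HOXA4 had 2.39 and 2.44 FPKM, and HOXB4, known for expanding blood stem cells, had 1.66 and 1.96 FPKM, a ratio of 1.18. The HOXC and HOXD members of this group were thus lower while the HOXA and HOXB members were level or higher. In group 6, HOXA6 had a ratio of 1.06, HOXB6 had 6.60 and 7.41 FPKM, and HOXC6 had 5.56 and 5.05 FPKM. HOXB7, the gene whose promoter marks the ureteric bud, had 7.66 and 6.64 FPKM, a ratio of 0.867. HOXD8, the highest gene of its cluster, had a ratio of 0.799.

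Among posterior genes, HOXA9 and HOXA10 had ratios of 1.12 and 1.05, and HOXC10 a ratio of 1.08. HOXB9 had 1.68 FPKM at 2 cm and 2.21 FPKM at 50 cm, a ratio of 1.32, the highest of the 23 genes. HOXD9 had 3.26 and 2.48 FPKM, a ratio of 0.762. The group 9 paralogs thus lay on both sides of 1, and all 4 HOXD genes above 1 FPKM, HOXD3, HOXD4, HOXD8 and HOXD9, were lower, with a median log2 ratio of −0.36. The medians of the other clusters were −0.05 for HOXA, −0.06 for HOXB and −0.14 for HOXC.

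Across the 23 genes, the paralog number and the log2 ratio had a Spearman rho of 0.592 and a Pearson r of 0.566. Without the members known to overlap another HOX gene, rho was 0.729 over 13 genes, HOXD4 included although its overlaps could not be checked. Over the 12 genes above 5 FPKM, rho was 0.498. The level moved in the same direction, with a rho of 0.390 between the mean log2 FPKM and the log2 ratio, and its part in the relation to the paralog number was not tested. All points come from the same pair of libraries, and neighbouring genes are not independent.

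Values below 1 FPKM can rest on few reads. From the steps that whole reads leave in the values of low features, a single read (1 read) carried 9.77% more FPKM at 50 cm than at 2 cm, while library depths are unknown. Of the 28 HOX genes above 0 in both cultures, 2 had a ratio that at most 10 whole reads in each culture give to within 0.001% (7.14%), beside 16.2% of the 10946 features up to the level of HOXA9. They were HOXC13, with 1 read in each culture, and HOXB9, with 5 reads against 6, or with a multiple of such a pair. With up to 100 reads, 11 of the 28 matched a pair (39.3%), beside 33.0% of the same features. These pairs cover 3.29% of the log scale of ratios between 1/4 and 4, so that some matches arise by coincidence.

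The match for HOXA2 was 61 reads at 2 cm against 27 at 50 cm, or a multiple of these. For HOXB2 it was 58 against 41, for HOXB13 39 against 34, for HOXD9 36 against 25, for HOXA4 14 against 13 and for HOXA11 13 against 7. HOXB8 had 0.311 and 0.0568 FPKM, a ratio of 0.183 below the minimum, and its nearest pair was 6 reads against 1, which was off by 0.0763%. HOXB5 had 0.0516 FPKM at 2 cm and was listed at 0 at 50 cm. HOXC5 had 0.727 and 0.770 FPKM. The differences of HOXB5, HOXB8, HOXA11 and HOXD11 are thus differences at levels where few reads decide, and no fold is given against a value of 0.

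Several HOX genes overlap in the RefSeq dog annotation of the assembly UU_Cfam_GSD_1.0, which differs from the build CanFam3.1 used for the files and serves here for neighbour order only. In that annotation, the span of HOXA3 overlaps HOXA4, HOXA5 and HOXA6, that of HOXB3 overlaps HOXB4, HOXB5 and HOXB6, and that of HOXC4 overlaps HOXC5, HOXC6, HOXC8 and HOXC9. How the authors' counting divided reads between overlapping genes is not given in the sources used here, so the levels of these genes are uncertain. Among the 13 genes above 1 FPKM without a known overlap with another HOX gene, 10 (76.9%) were lower in 50-cm-high medium, beside 47.4% of all features. All 4 anterior genes were among them. The difference between these shares was not tested. HOXD4 has no entry in that annotation, so its overlaps, also any with HOXD3, could not be seen. Both of these genes are counted among the 13.

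Transcripts inside the clusters other than HOX genes were low to moderate. In HOXA, the long noncoding LOC102156409 between HOXA9 and HOXA10 had 19.3 FPKM at 2 cm and 20.9 FPKM at 50 cm, a ratio of 1.09 near that of its neighbours. In HOXD, the long noncoding LOC102157027 between HOXD8 and HOXD3 had 3.94 and 1.78 FPKM, a ratio of 0.452 that matched 17 reads against 7. HOXD4 has no entry in the RefSeq annotation used for this order, so its place relative to LOC102157027 is not known. LOC102151168, between HOXD3 and HOXD1, had 1.19 and 0.391 FPKM, a ratio of 0.329. Both HOXD transcripts were lower, as HOXD3 was, although the second was below 1 FPKM in 50-cm-high medium and matched 10 reads against 3. LOC102156194, which overlaps HOXB2 and HOXB3, had 2.50 and 1.37 FPKM, a ratio of 0.549 that is the ratio of 2 reads against 1 or of a multiple of these. HOTAIR, the long noncoding RNA of the HOXC cluster, here matched by gene identifier, had 0.159 FPKM at 2 cm and was listed at 0 at 50 cm. LOC102152945, a long noncoding transcript that overlaps HOXC4, had 6.65 and 5.21 FPKM, a ratio of 0.784. At the anterior end of HOXA, LOC100683344 had 2.71 and 2.79 FPKM, a ratio of 1.03. These transcripts were chosen by their place in the clusters.

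Among genes that flank the clusters on the anterior side, 11 were above 1 FPKM in both cultures, with ratios from 0.940 (CBX5) to 1.29 (SNX10). On the anterior side of HOXA, SKAP2 had 50.1 and 49.9 FPKM and SNX10 had 45.7 and 58.9 FPKM. On that side of HOXB, SNX11 had 34.7 and 35.4 FPKM, and on that side of HOXD, MTX2 had 126 and 123 FPKM. On the posterior side, 9 flanking genes were above 1 FPKM in both cultures, with ratios from 0.765 (CALCOCO1, with 6.21 and 4.76 FPKM) to 1.24. Ratios near those of HOXB2 and HOXB3 were thus found among flanking genes too, where levels were like those of HOX genes. EVX1 and EVX2, homeobox genes beside the posterior ends of HOXA and HOXD, were listed at 0 at 2 cm and at 0.0725 and 0 FPKM at 50 cm. The difference between HOX genes and flanks was not tested, and the anterior flanks had higher levels than the anterior HOX genes.

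HOX proteins bind DNA together with PBX, MEIS and PKNOX homeodomain cofactors. Of 9 cofactor genes, 5 were above 1 FPKM in both cultures. None of these changed more than 2-fold, beside 1.67% of all features. Of the 5, 4 were lower, beside 47.4% of all features, and 1 was higher, with a median log2 ratio of −0.22. PBX3 was the highest at 56.5 FPKM at 2 cm and 58.1 FPKM at 50 cm. PBX2 had 18.2 and 14.0 FPKM, and MEIS2 had 4.19 and 2.78 FPKM, a ratio of 0.664 and the lowest of the list. PKNOX2 was listed at 0 in both cultures, and among the cofactors above 1 FPKM the PBX class was represented by PBX2 and PBX3.

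Trithorax-type activators, which keep HOX genes active, and Polycomb genes, which keep them silent, were largely level by their median ratios. All 12 Trithorax-type genes analysed here (KMT2B was not) were above 1 FPKM in both cultures. None changed more than 2-fold, beside 1.67% of all features, and the median log2 ratio was 0.02. KMT2A, the histone methyltransferase also known as MLL, had 13.6 FPKM in both cultures. The ratios ran from 0.848 for PSIP1, with 57.8 and 49.0 FPKM, to 1.25 for HCFC1, with 26.0 and 32.6 FPKM. Of the 27 Polycomb genes, 26 were above 1 FPKM in both cultures and none changed more than 2-fold, beside the same 1.67%. Of the 26, 15 were lower, beside 47.4% of all features, and 11 higher, with a median log2 ratio of −0.03. EZH2, the main catalytic subunit, had 19.9 and 20.9 FPKM, and its relative EZH1 had the lowest ratio, 0.721, with 3.58 and 2.59 FPKM.

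The 7 genes of chromatin boundaries and replication, among them CTCF, which bounds active and silent parts of HOX clusters, were all above 1 FPKM. None changed more than 2-fold, beside 1.67% of all features. Lists as short as these say little by that count. CTCF had 31.8 and 34.8 FPKM, the cohesin subunit RAD21 had 94.4 and 83.0 FPKM, and geminin (GMNN) had 68.0 and 75.2 FPKM. Of the 13 ParaHox and cluster-linked homeobox genes, 7 were listed at 0 in both cultures, among them the caudal factors CDX2 and CDX4, which activate posterior HOX genes in the embryo. MNX1 was the only one above 1 FPKM in both, with 5.44 and 4.78 FPKM. CDX1 had 0.110 and 0.121 FPKM, so that no CDX gene passed 1 FPKM in cells with several posterior HOX genes above it.

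**Figure D5:**
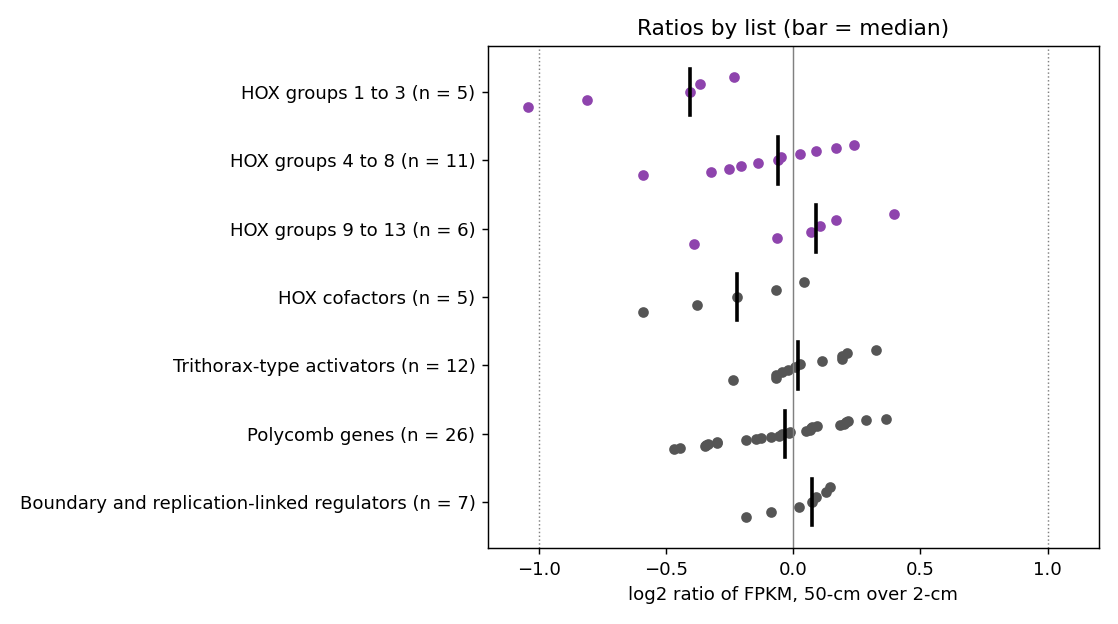
Log2 ratio of FPKM (50-cm-high over 2-cm-high medium) of genes above 1 FPKM in both cultures, for 22 of the 23 HOX genes by axial group (purple) and for the cofactor and chromatin lists (grey), with black bars at the medians of the genes drawn and dotted lines at 2-fold. The anterior HOX median of the 5 genes drawn, −0.41 at HOXB3, is the lowest of the 7 medians shown, and the cofactor median is −0.22. Over all 6 anterior genes the median was −0.52.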

How the data were processed

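RNA was extracted by the authors from 1 MDCK culture per medium height, 2 cm and 50 cm. They made stranded mRNA libraries, mapped single-end reads to CanFam3.1 with TopHat2 2.0.13, Bowtie2 2.2.3 and SAMtools 0.1.19, and deposited FPKM values from Cuffnorm 2.2.1. The annotation, the scaling and the use of strand in counting are not given in the sources used here. FPKM depends on all other genes of a library, and low values rest on few reads. Depth is unknown, so no interval or detection floor was computed.

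FPKM ratios (50 cm over 2 cm) were taken without a pseudocount over features above 1 FPKM in both cultures. A ratio above 2 or below 0.5 was called changed, following the rule as the study's methods state it. Under that rule the study gives 730 genes, whereas the values used here gave 185 of 11057 features. A minimum of 0.1 FPKM in both cultures gave 730. With 1 culture per group no test was run. Members were matched by symbol, and cluster neighbours by gene identifier in the RefSeq table of UU_Cfam_GSD_1.0, which has no entry for HOXD4.

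Members and lists were chosen with earlier results of these data known. Every HOX gene above 1 FPKM in a culture, at 0 in exactly one, or highest or lowest in its cluster was named. Of each other list, members past 2-fold, otherwise those of extreme ratio or highest level, were named. Some genes that meet these rules are not reported here. Other genes named, among them HOXB8, HOXC5, HOXA13, HOXC13 and flanking genes, were chosen after their values were seen. Alternatives were other FPKM minima, pseudocounts, recentring and quantile normalization. Scripts were tested on simulated data. Python 3.11.15, numpy 2.4.6, pandas 2.3.3, scipy 1.17.1 and matplotlib 3.10.9 were used.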

Additional observations from a re-analysis of the deposited data

How the results depend on the processing

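The count of HOX genes changed more than 2-fold was 1 with the settings used. It was 0 with a minimum of 5 FPKM, with a pseudocount of 0.1 or 1 and with quantile normalization, and 2 of 28 with any value above 0 (7.14%, beside 8.50% of all features), where HOXB8 joined HOXA2. The number of HOX genes above the minimum was 12 at 5 FPKM. Without members known to overlap another HOX gene, an alternative added after seeing the data, it was 13, and the median log2 ratio was −0.25 in place of −0.14. Other settings gave medians from −0.15 to −0.06, the latter at 5 FPKM. Extending the whole-read pairs from 10 to 100 reads, also added after seeing the data, raised the matching genes from 2 to 11. The 6 anterior genes were lower under every other FPKM minimum and scaling that kept them. At 5 FPKM 2 anterior genes were left, both lower, and without members known to overlap 4 were left, all lower. HOXB13 was the only HOX gene above 1 FPKM in both cultures whose direction turned, from −0.06 to 0.08 on the log2 scale under quantile normalization, which left 14 of 23 genes lower in place of 15. No paired analysis was possible because each group had 1 culture. Without replicates, spread between cultures, and hence whether any of these differences would recur, could not be measured.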
